A study of Mus musculus with 6 samples.

Results

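The mitochondrial genome of the mouse encodes 37 genes, and all of them have a row in the deposited expression table of 28812 genes. They were taken as every row whose gene name starts with mt-: 13 protein genes, 2 ribosomal RNAs and 22 transfer RNAs. The 6 libraries came from chondrocytes, the cells of cartilage, labelled OA (osteoarthritis) and of wt genotype. In 3 libraries the cells had been given IL-1β (interleukin-1 beta), a cytokine that drives inflammation and matrix loss in joints, together with mitochondria, and in the other 3 they had been given IL-1β with vehicle. The series title names osteocytes, the cells embedded in bone, as the source of the mitochondria. All 6 libraries thus share the IL-1β treatment, and no chondrocytes without it were analysed here. The labels give no dose, time or age, and they do not say whether replicates were separate cultures, so p-values measure only the spread between these libraries. Transplanted mitochondria carry their own DNA and RNA, and the table does not separate donor transcripts from those of the recipient cells.

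Mitochondrial DNA (mtDNA) is a small circular genome that is transcribed from both strands into long precursors. The tRNAs punctuate these precursors, and their excision releases the mRNAs and rRNAs between them. The proteins are core subunits of respiratory complexes I, III and IV and of the ATP synthase (complex V), which work together with many nuclear-encoded subunits. Cartilage is poorly supplied with oxygen, and chondrocytes are known for their reliance on glycolysis. Of the protein genes, 12 lie on the + strand of the annotation, the products of heavy-strand transcription, and mt-Nd6 alone lies on the - strand. Of the tRNA genes, 14 lie on the + strand and 8 on the - strand. All positions are 1-based coordinates on the MT chromosome of GRCm38, and all 37 members had the same start, end and strand in GENCODE M21.

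Some members are packed so tightly that neighbouring genes share bases, which limits how far their values can be told apart. mt-Atp8 (7766 to 7969) and mt-Atp6 (7927 to 8607) are read from the same RNA and share the 43 bases printed here, with the start codon of mt-Atp6 and the stop codon of mt-Atp8 in capitals.
mt-Atp8/mt-Atp6, chrMT:7927-7969, + strand: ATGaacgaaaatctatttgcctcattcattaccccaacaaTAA
mt-Nd4l (9877 to 10173) and mt-Nd4 (10167 to 11544) share 7 bases on the same strand, and mt-Nd5 (11742 to 13565) and mt-Nd6 (13552 to 14070) share 14 bases on opposite strands. In 3 of the 13 protein genes, the annotated transcript ends with 1 base beyond its whole codons. In mitochondria such a lone T becomes a stop codon through the poly(A) tail, which is also the feature by which these libraries were selected. The last 24 bases of those genes are shown with that T in capitals.
mt-Co3, chrMT:9367-9390, + strand: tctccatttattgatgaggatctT
mt-Nd4, chrMT:11521-11544, + strand: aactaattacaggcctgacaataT
mt-Cytb, chrMT:15265-15288, + strand: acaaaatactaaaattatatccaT
These genes share that feature but not their change: mt-Nd4 was among the protein genes with the largest falls, and mt-Co3 was the protein gene with the smallest change.

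The mitochondria libraries held 63547854 to 66293786 deposited counts and the vehicle libraries 64646124 to 65131847. Of 17290 genes tested by edgeR, 1099 were higher and 1463 lower with mitochondria at an adjusted p under 0.05. The cartilage collagen Col2a1 stood at 88.1 to 111 FPKM (a level per transcript length and sequencing depth) in mitochondria libraries and at 105 to 123 FPKM in vehicle libraries. All 12 chondrocyte markers were detected. Their summed level was 1570 to 1809 CPM (a level relative to the library total) in mitochondria libraries and 1913 to 2285 CPM in vehicle libraries, with Acan (log2 fold change 0.54) and Sox9 (0.54) higher and Col11a1 (-0.94) and Hapln1 (-1.03) lower. Of 7 osteocyte markers in the table, the defining Dmp1 and Sost were at 0 in all mitochondria libraries, and each was above 0 in 1 vehicle library, at 0.020 and 0.025 FPKM. Phospho1 and Ackr3 rose. Ackr3 averaged 399 CPM with mitochondria and 303 CPM with vehicle, and Phospho1 averaged 102 CPM with mitochondria and 51.6 CPM with vehicle. The summed osteocyte markers, mostly Ackr3 and Phospho1, stood at 476 to 533 CPM in mitochondria libraries and 347 to 375 CPM in vehicle libraries. Of the 4 osteocyte markers tested, Fgf23 (1.34) and Irx5 (-0.50) were not called, and Phex did not pass the filter on low counts. Of 5 synovial fibroblast markers tested, Thy1 (-0.58, adjusted p = 0.011, edgeR) and Dpp4 (-1.88, adjusted p = 0.0067) fell and Cd34 (0.45, adjusted p = 0.024) rose, and their sum was 544 to 579 CPM in mitochondria libraries and 592 to 688 CPM in vehicle libraries. Macrophage markers summed to 75.0 to 89.6 CPM in mitochondria libraries and to 73.2 to 92.4 CPM in vehicle libraries. The part of these marker levels in the results on mtDNA transcripts was not tested.

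Transcripts of mtDNA took a smaller share of the libraries given mitochondria. In mitochondria replicates 1 to 3 the 37 genes held 0.585%, 1.16% and 0.925% of all counts, against 1.62%, 2.04% and 1.81% in vehicle replicates 1 to 3. Every mitochondria library lay below every vehicle library, with means of 0.889% ± 0.288 and 1.82% ± 0.210 (SD, n = 3 each). The difference of -0.934 percentage points had an exact two-sided permutation p of 0.10, the smallest that 3 against 3 libraries allow. Protein genes made up almost all of it, at 0.874% of counts with mitochondria and 1.79% with vehicle. In bulk RNA, fewer cells of a type and less RNA per cell cannot be told apart, and the same holds here for the number of mtDNA copies and the RNA made per copy.

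Gene by gene, 16 of the 29 members tested fell with mitochondria and none rose (edgeR quasi-likelihood test, adjusted over all genes). Among all genes tested, 8.46% were called lower and 6.36% higher. The members that fell were 12 of the 13 protein genes, both rRNAs and 2 of 14 tested tRNAs. At an unadjusted p under 0.05, 19 members were lower and 0 higher, a threshold at which the share of all genes was not computed. DESeq2 called 17 of the 23 members with a result lower and 0 higher. Over all 26044 genes it was run on, DESeq2 called 2193 lower and 1514 higher. All 29 fold change estimates were below 0, with a median log2 fold change of -1.35, against 0.003 over all genes tested. In 26 members every mitochondria library lay below every vehicle library, an arrangement found in 20.9% of all genes tested, while none had every mitochondria library higher, as 19.8% of all genes did. The members called lower were 7 of 29 tested when vehicle replicate 2 or vehicle replicate 3 was left out, and 8 of 31 when mitochondria replicate 3 was. Calls fell over all genes too, from 1463 of 17290 genes lower to 316 of 17875, 310 of 17938 and 734 of 18033 in those fits, in that order. With a correction for GC content, 6 members were called lower and 2 higher, and those values are given beside each group of genes.

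**Figure D1:**
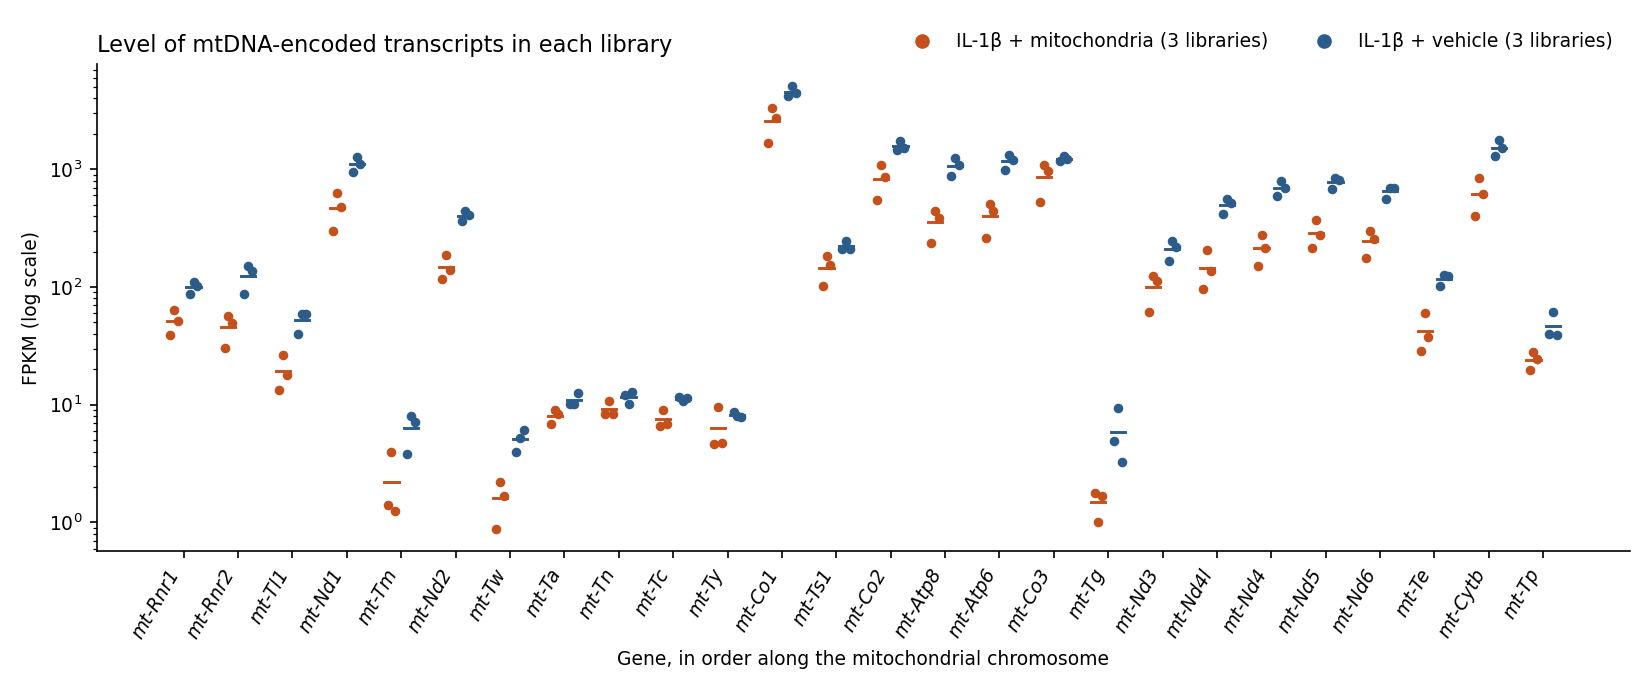
FPKM of the protein genes, rRNAs and the more abundant tRNAs on a log axis, 1 point per library with the mean as a line, and mitochondria libraries left of vehicle libraries for each gene. mt-Co1 is at the top in both groups, and the protein genes separate by group with the smallest gap at mt-Co3.

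**Figure D2:**
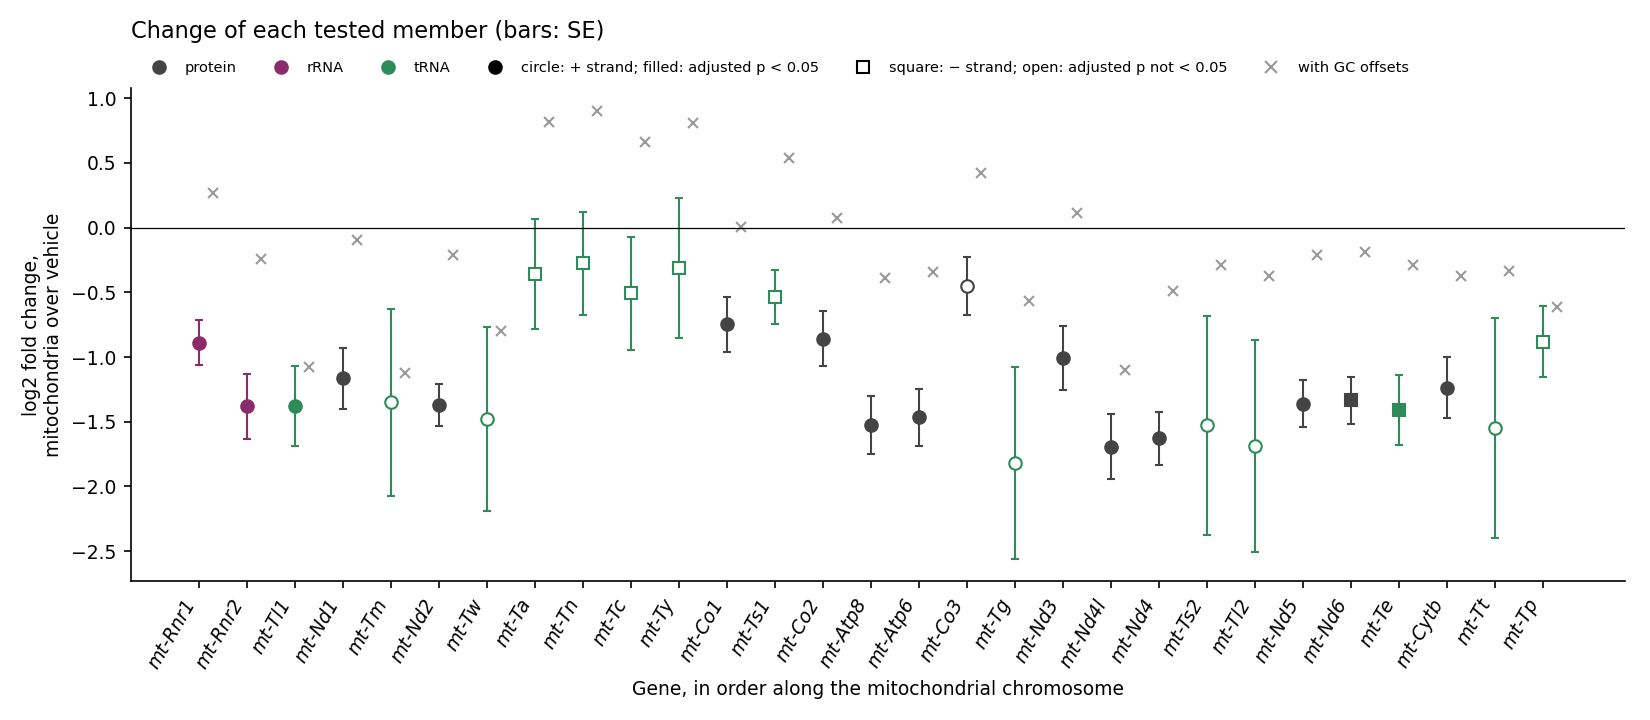
Log2 fold change, mitochondria over vehicle, of the 29 members tested, with bars for 1 SE. Circles are + strand genes, squares - strand genes, filled symbols have an adjusted p under 0.05, and grey crosses give the value with GC offsets. All 29 points lie below 0, and each cross lies above its point.

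Complex I is the NADH dehydrogenase at the entry of the respiratory chain, and mtDNA encodes 7 of its membrane-arm subunits. All 7 fell, with a median log2 fold change of -1.36 (range -1.69 to -1.01), against 0.003 over all genes tested. mt-Nd4l measured 96.4, 206 and 137 FPKM in mitochondria libraries and 414, 563 and 514 FPKM in vehicle libraries, and changed by -1.69 ± 0.25 (SE; adjusted p = 0.0066, edgeR). Its neighbour mt-Nd4, which encodes a proton-pumping subunit, measured 151, 278 and 212 FPKM with mitochondria and 597, 792 and 695 FPKM with vehicle (-1.63 ± 0.20, adjusted p = 0.0046). In both genes the highest mitochondria library stayed well under the lowest vehicle library. mt-Nd2 stood at 117, 186 and 141 FPKM with mitochondria and at 360, 440 and 407 FPKM with vehicle (-1.37 ± 0.16, adjusted p = 0.0042). mt-Nd5, whose product is another of the pumping subunits, stood at 215, 371 and 279 FPKM with mitochondria and at 678, 850 and 805 FPKM with vehicle (-1.36 ± 0.18, adjusted p = 0.0051). The gaps between groups were again wider than the spread within them.

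mt-Nd1 (2751 to 3707) encodes a subunit near the quinone-binding site. It measured 301, 631 and 482 FPKM with mitochondria and 948, 1275 and 1111 FPKM with vehicle (-1.17 ± 0.23 SE, adjusted p = 0.017, edgeR). mt-Nd3 (9459 to 9806) had the smallest change of the 7, with 61.1, 123 and 113 FPKM in mitochondria libraries and 166, 244 and 218 FPKM in vehicle libraries (-1.01 ± 0.25, adjusted p = 0.030). The groups did not overlap in either gene, but both calls were lost without mitochondria replicate 3, vehicle replicate 2 or vehicle replicate 3. mt-Nd6, the - strand gene, measured 177, 301 and 256 FPKM with mitochondria and 557, 700 and 689 FPKM with vehicle (-1.33 ± 0.18, adjusted p = 0.0053). Its change lay inside the range of the + strand complex I genes. With GC offsets only mt-Nd4l (-1.10, adjusted p = 0.0016) and mt-Nd4 (-0.49, adjusted p = 0.0064) were still called lower. The other 5 estimates lay between -0.21 and 0.11, and mt-Nd3 was the gene whose sign turned.

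Complex III passes electrons from quinol to cytochrome c, and mtDNA encodes cytochrome b for it. mt-Cytb (14145 to 15288) measured 400, 836 and 616 FPKM with mitochondria and 1303, 1779 and 1504 FPKM with vehicle, and changed by -1.24 ± 0.24 on the log2 scale (SE; adjusted p = 0.014, edgeR). The call held with GC offsets at a smaller size (-0.38, adjusted p = 0.030) and was lost without mitochondria replicate 3, vehicle replicate 2 or vehicle replicate 3. The ATP synthase subunits mt-Atp8 and mt-Atp6 fell to a like extent. mt-Atp8 measured 237, 443 and 384 FPKM with mitochondria and 875, 1246 and 1096 FPKM with vehicle (-1.52 ± 0.22, adjusted p = 0.0063). mt-Atp6, which encodes the proton channel subunit, measured 263, 507 and 438 FPKM with mitochondria and 978, 1328 and 1202 FPKM with vehicle (-1.47 ± 0.22, adjusted p = 0.0067). Every mitochondria library was under every vehicle library in both. With GC offsets they were at -0.39 and -0.34 (adjusted p = 0.014 and 0.013).

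Complex IV is cytochrome c oxidase, which hands electrons to oxygen, and its 3 mtDNA-encoded subunits form the catalytic core. They had the smallest changes of the 4 complexes, with a median of -0.75. mt-Co1 (5328 to 6872) was the most abundant member in every library, at 1689, 3350 and 2723 FPKM with mitochondria and 4175, 5088 and 4416 FPKM with vehicle (-0.75 ± 0.21 SE, adjusted p = 0.047, edgeR). mt-Co2 (7013 to 7696) stood at 547, 1085 and 857 FPKM with mitochondria and 1469, 1747 and 1518 FPKM with vehicle (-0.86 ± 0.21, adjusted p = 0.030). Both calls were lost without mitochondria replicate 3 and without any 1 of the vehicle libraries. mt-Co3 (8607 to 9390) was the protein gene that did not pass, at 529, 1095 and 962 FPKM with mitochondria and 1176, 1306 and 1223 FPKM with vehicle (-0.45 ± 0.22, adjusted p = 0.21). The mitochondria libraries of mt-Co3 still lay below the vehicle libraries, with mitochondria replicate 2 close under the lowest of them. With GC offsets mt-Co1 was at 0.00 and mt-Co2 at 0.07, neither passing, and mt-Co3 was called higher (0.43, adjusted p = 0.0054).

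Ratios within a library do not depend on how libraries are scaled, so the make-up of the mtDNA transcripts was compared by such ratios. They were taken without GC offsets, and the part of GC content in them was not tested. The genes had 38.6 to 39.9% GC in complex IV, 33.05 to 41.1% in complex I, 39.1% in complex III and 31.9 and 36.0% in complex V. Complex IV genes held 64.9%, 65.9% and 67.2% of the counts of the 13 protein genes in mitochondria libraries, against 57.7%, 55.4% and 54.8% in vehicle libraries. Complex I genes held 22.0%, 20.6% and 19.7% with mitochondria and 26.2%, 27.1% and 28.0% with vehicle. The complex III gene averaged 8.86% ± 0.390 with mitochondria and 10.7% ± 0.456 with vehicle, and complex V genes 4.38% ± 0.170 and 6.22% ± 0.354 (SD, n = 3 each). None of these shares overlapped between groups. Relative to complex IV, log2 ratios differed by -0.62 for complex I, -0.51 for complex III and -0.74 for complex V, each with an exact two-sided permutation p of 0.10. That is the smallest p possible, and adjusted over the 43 ratios computed it was 0.16, so no ratio could pass at 0.05. In 27 of the 43 ratios the groups did not overlap, with 18 lower and 9 higher in all mitochondria libraries. By level, 20.9% of all genes tested were lower and 19.8% higher in all mitochondria libraries. Most of the ratios divide by the sum of the 13 protein genes, of which mt-Co1 is the largest part, so they are not separate results.

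**Figure D3:**
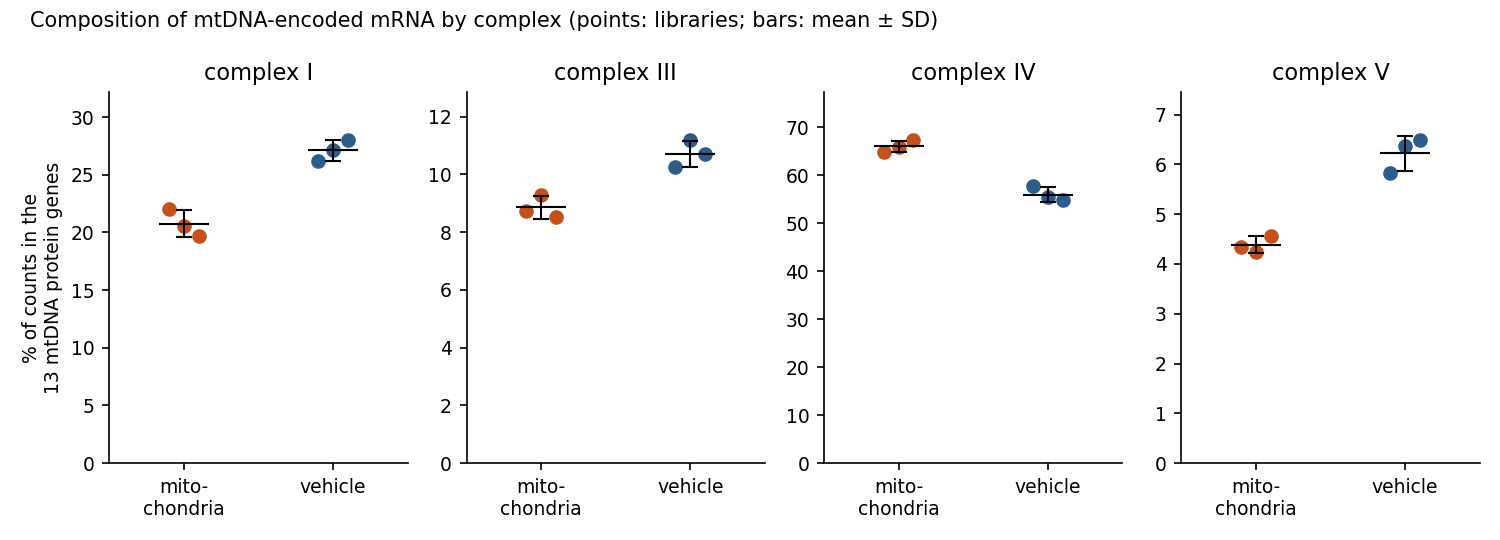
Share of the counts of the 13 mtDNA protein genes held by each respiratory complex, in percent, 1 point per library with the mean and SD as bars, and mitochondria libraries left of vehicle libraries. Complex IV is at 64.9% to 67.2% with mitochondria and 54.8% to 57.7% with vehicle, and the other complexes are lower with mitochondria.

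mt-Co1 alone held 49.8%, 50.3% and 51.0% of the protein-gene counts in mitochondria libraries and 44.4%, 43.2% and 42.4% in vehicle libraries. mt-Co3 held 7.92%, 8.35% and 9.14% with mitochondria and 6.35%, 5.63% and 5.96% with vehicle, a log2 difference of 0.50. In the opposite direction, mt-Nd4 held 3.98%, 3.73% and 3.55% with mitochondria and 5.66%, 5.99% and 5.95% with vehicle (-0.65). mt-Nd4 and mt-Co3 come from the same strand, yet their log2 fold changes lay 1.18 apart, a gap of 0.91 with GC offsets. Proportions between genes read from the same mRNA were compared next. The count of mt-Atp8 was 26.9%, 26.2% and 26.3% of that of mt-Atp6 with mitochondria and 26.8%, 28.1% and 27.3% with vehicle (exact permutation p = 0.20). mt-Nd4l over mt-Nd4 was 13.7%, 16.0% and 13.9% with mitochondria and 15.0%, 15.3% and 16.0% with vehicle (exact permutation p = 0.40). In both pairs the groups overlapped, though the shared bases can hold such pairs together.

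Strand and distance from the start of transcription were compared in the same way. mt-Nd6 amounted to 1.78%, 1.54% and 1.64% of the counts of the heavy-strand protein genes in mitochondria libraries, against 2.03%, 2.03% and 2.27% in vehicle libraries. The log2 difference was -0.35 (exact two-sided permutation p = 0.10), with no overlap. The heavy-strand sum is mostly complex IV, whose genes held 66.0% of protein-gene counts with mitochondria and 56.0% with vehicle. By log2 fold change mt-Nd6 was at -1.33, close to the median of -1.30 over the 12 + strand protein genes. The ratio thus does not separate strand from the shift between complexes. mt-Nd1 plus mt-Nd2, which lie upstream, over mt-Nd5 plus mt-Cytb, which lie downstream, was 48.3%, 48.9% and 50.1% with mitochondria and 47.0%, 46.8% and 46.6% with vehicle. This log2 difference was 0.07 (exact permutation p = 0.10), far smaller than the difference between complexes.

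In order of level per length, mt-Co1 was followed in vehicle libraries by mt-Co2, mt-Cytb, mt-Co3, mt-Atp6, mt-Nd1 and mt-Atp8, a run in which each neighbour overlapped the next. mt-Nd5, mt-Nd4, mt-Nd6, mt-Nd4l and mt-Nd2 came next and also overlapped from neighbour to neighbour. mt-Nd3 was the lowest protein gene, at 99.0 ± 33.2 FPKM with mitochondria and 209 ± 39.6 FPKM with vehicle (SD, n = 3 each). With mitochondria, mt-Co3 stood at rank 2 of all members, against rank 4 with vehicle, while mt-Cytb stood at rank 4 against rank 3. The libraries also kept an order of their own. In all 13 protein genes replicate 1 was the lowest and replicate 2 the highest library within its group, in the mitochondria group and in the vehicle group alike.

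The 2 rRNAs, the structural RNAs of the mitochondrial ribosome, both fell. mt-Rnr1 (12S, 70 to 1024) measured 39.0, 63.7 and 51.0 FPKM in mitochondria libraries and 86.6, 110 and 103 FPKM in vehicle libraries (-0.89 ± 0.17 SE, adjusted p = 0.015, edgeR). mt-Rnr2 (16S, 1094 to 2675) measured 30.6, 57.0 and 49.4 FPKM with mitochondria and 87.3, 150 and 138 FPKM with vehicle (-1.38 ± 0.25, adjusted p = 0.012). The groups were apart in both, but in these poly(A)-selected libraries the rRNAs held only 0.0134% of counts with mitochondria and 0.0322% with vehicle. mt-Rnr2 over mt-Rnr1 was 130%, 148% and 160% with mitochondria and 167%, 226% and 223% with vehicle, a log2 difference of -0.48 (exact permutation p = 0.10). Both calls were lost without vehicle replicate 2 or 3, that of mt-Rnr1 also without mitochondria replicate 3, and both with GC offsets (0.27 for mt-Rnr1 and -0.24 for mt-Rnr2).

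The tRNAs are 59 to 75 bases long and carry no poly(A) tail when mature, so how much of their signal came from longer RNAs that contain them cannot be told from the table. Of 22, 14 passed the filter on low counts, with 2 to 1224 counts per library. The 8 that did not had 0 to 30 counts, and among them mt-Tv was at 0 in all mitochondria libraries. The tRNAs that fell were mt-Tl1, which reads leucine codons and lies directly after the 16S rRNA, and mt-Te, which reads glutamate codons and lies between mt-Nd6 and mt-Cytb. They are shown with the anticodon in capitals, in the DNA alphabet of the gene's own strand.
mt-Tl1, chrMT:2676-2750, + strand: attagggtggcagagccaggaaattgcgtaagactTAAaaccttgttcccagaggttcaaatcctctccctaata
mt-Te, chrMT:14071-14139, - strand: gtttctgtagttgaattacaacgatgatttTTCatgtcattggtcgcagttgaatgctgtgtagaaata
mt-Tl1 measured 13.4, 26.5 and 17.8 FPKM with mitochondria and 39.9, 58.8 and 58.7 FPKM with vehicle (-1.38 ± 0.31 SE, adjusted p = 0.022, edgeR). mt-Te measured 28.8, 59.9 and 37.5 FPKM with mitochondria and 103, 127 and 123 FPKM with vehicle (-1.41 ± 0.27, adjusted p = 0.014). Both separated the groups, and both calls were lost without mitochondria replicate 3, vehicle replicate 2 or vehicle replicate 3. With GC offsets mt-Tl1 was still lower (-1.08, adjusted p = 0.019) and mt-Te was not (-0.29, adjusted p = 0.31). mt-Ts1, a serine tRNA, was the most abundant tRNA, at 101, 182 and 155 FPKM with mitochondria and 209, 248 and 212 FPKM with vehicle. It did not pass (-0.54 ± 0.21, adjusted p = 0.12), and it was called higher with GC offsets (0.54, adjusted p = 0.012). mt-Tp, the proline tRNA, did not pass either (-0.88 ± 0.28, adjusted p = 0.065), nor with GC offsets (-0.62, adjusted p = 0.12).

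A cluster of 4 neighbouring - strand tRNAs between mt-Nd2 and mt-Co1 had fold changes among the smallest of the members tested. They read alanine, asparagine, cysteine and tyrosine codons, and they lie opposite the heavy-strand transcript. Their sequences are shown with the anticodon in capitals.
mt-Ta, chrMT:5018-5086, - strand: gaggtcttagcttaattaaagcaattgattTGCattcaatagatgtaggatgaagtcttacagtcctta
mt-Tn, chrMT:5089-5159, - strand: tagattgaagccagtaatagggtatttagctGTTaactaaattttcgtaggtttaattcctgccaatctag
mt-Tc, chrMT:5192-5257, - strand: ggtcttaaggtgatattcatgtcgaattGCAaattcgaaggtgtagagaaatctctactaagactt
mt-Ty, chrMT:5260-5326, - strand: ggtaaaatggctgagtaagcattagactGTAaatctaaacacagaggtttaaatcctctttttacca
mt-Ta had 35, 44 and 41 deposited counts with mitochondria and 50, 50 and 62 with vehicle. mt-Tn had 43, 54 and 43 counts with mitochondria and 61, 52 and 65 with vehicle. The groups were close in both, and they overlapped in mt-Tn. Log2 fold changes of the 4 ran from -0.51 to -0.28 with SEs of 0.40 to 0.54, and none was called by edgeR, at an unadjusted p under 0.05 or by DESeq2. With GC offsets the signs turned, to 0.81 for mt-Ta, 0.90 for mt-Tn, 0.66 for mt-Tc and 0.81 for mt-Ty, and none passed. Relative to the 13 protein genes, mt-Ta, mt-Tn and mt-Tc were higher in all mitochondria libraries, by 0.65, 0.74 and 0.50 on the log2 scale (exact permutation p = 0.10 each), and mt-Ty overlapped (0.62, p = 0.20). Among the 7 tested + strand tRNAs the median log2 fold change was -1.53, against -0.51 among the 7 tested - strand tRNAs. Apart from mt-Tl1, these + strand tRNAs (mt-Tm, mt-Tw, mt-Tg, mt-Ts2, mt-Tl2 and mt-Tt) had only 2 to 46 counts per library. Their SEs were 0.71 to 0.85, none was called, and with GC offsets they lay between -1.12 and -0.29. The authors are not stated to have counted by strand, so reads of a - strand gene and of the precursor opposite it cannot be told apart.

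Parts of mtDNA have copies in the nuclear genome, and 11 annotated copies with counts in the same table were found at the similarity set for the search. The 8 described here are a list chosen with earlier results of these data known, and the other 3, copies of mt-Co2, mt-Nd5 and mt-Nd2, had 449, 23 and 22 counts summed over the libraries. Of the 8, 7 lie in a single block on chromosome 1 (24611535 to 24616197, - strand), and 5 of the 8 matched their mtDNA gene at 100% over the whole matching stretch. Gm28438, the copy of mt-Nd3, matched over 345 bases with 1 difference, written T3C, with positions counted from base 1 of mt-Nd3. The first 60 bases of both show how little a sequencing read has to separate them, with the base that differs in capitals.
mt-Nd3, chrMT:9459-9518, + strand: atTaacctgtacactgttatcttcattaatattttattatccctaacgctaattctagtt
Gm28438, chr1:24613060-24613119, - strand: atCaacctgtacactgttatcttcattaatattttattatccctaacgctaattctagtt
The deposited FPKM of Gm28438 was 61.3, 123 and 112 with mitochondria and 165, 236 and 217 with vehicle, almost the same as for mt-Nd3. The FPKM of a copy was 0.970 to 1.01 times that of its gene for mt-Nd3, mt-Nd4l, mt-Co2 and mt-Co3 and 1.06 to 1.07 times for mt-Atp6. The copy of mt-Nd4, which matches bases 1 to 876, stood at 0.633 to 0.700 of it. Whether reads that match 2 places were split or counted at both cannot be told from the table, so the levels of these genes are uncertain between member and copy.

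Most of the copies were lower with mitochondria, like their genes. Of the 8, 6 were called lower and 0 higher by edgeR, among them Gm28439 (mt-Nd4, -1.66), Gm10222 (mt-Nd4l, -1.68) and Gm10925 (mt-Atp6, -1.47). Among all genes tested, 8.46% were called lower. Calls of copies that match their gene may rest on the same reads, so they are not separate results. Gm28437, the copy of mt-Co3, was at -0.46 and did not pass, like mt-Co3 itself. Gm29216, a copy of mt-Co1, did not pass either (-0.57, adjusted p = 0.089, edgeR), although mt-Co1 was called lower. With the counts of the copies added, mtDNA transcripts held 1.12% ± 0.363 of counts with mitochondria and 2.27% ± 0.256 with vehicle (SD, n = 3 each). Gm29216, which matches bases 1063 to 1545 of mt-Co1, was the chromosome 1 copy whose ratio to its gene differed between groups without overlap. It stood at 0.258 to 0.272 of the mt-Co1 FPKM with mitochondria and at 0.231 to 0.245 with vehicle. The ratio of Gm13340, a copy of mt-Co1 on chromosome 2, differed without overlap in the opposite direction, at 0.00057 to 0.00065 with mitochondria and 0.00073 to 0.00086 with vehicle.

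**Figure D4:**
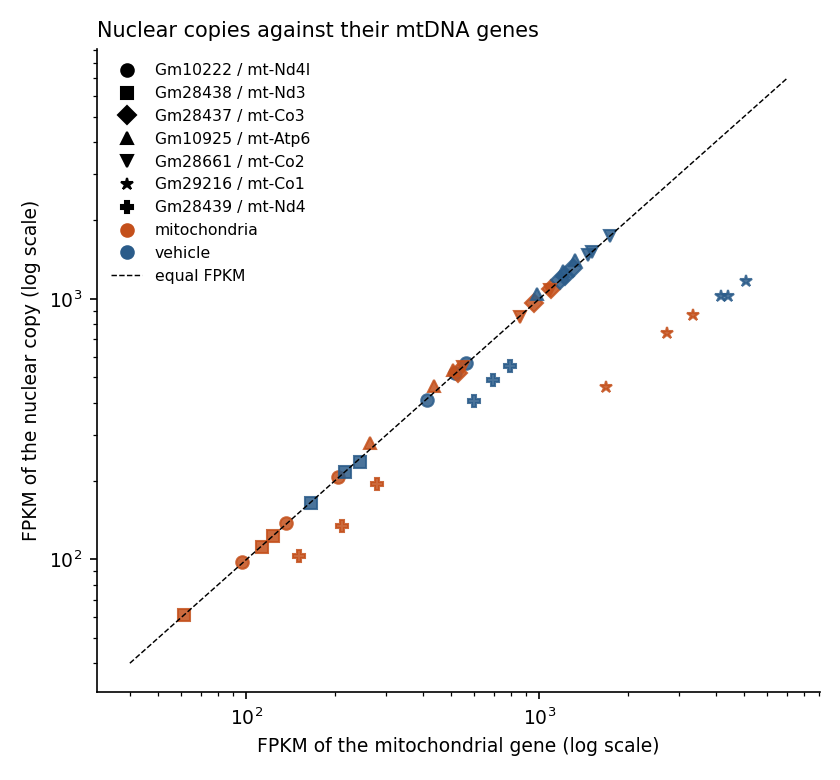
FPKM of the 7 chromosome 1 copies against FPKM of the mtDNA gene each one matches, both on log axes, 1 point per library, with the line of equal values. Copies of mt-Nd3, mt-Nd4l, mt-Co2, mt-Co3 and mt-Atp6 lie on or close to the line in all 6 libraries, and those of mt-Nd4 and mt-Co1 lie below it.

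The base composition of a gene moved with its fold change across the whole table, and the members are rich in A and T. The GC content of the 13 protein genes ran from 31.9% to 41.1%, with a median of 37.1%. Among genes that are neither in mtDNA nor among its 11 nuclear copies, the 571 with a GC content of 35 to 40% had a median log2 fold change of -0.81, and 28.9% of them were called lower. The 21 such genes under 35% GC had a median of -1.96, with 8 called lower, while the 735 genes of 60% GC or more had a median of 0.22. The members thus lay in the composition range where other genes were called lower more often than over the whole table (8.46%). Offsets fitted to GC content in each library brought the medians of the bins from 35% GC upward to between -0.03 and 0.11, and that of the genes under 35% GC to -0.98.

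Under these offsets the 13 protein genes had a median log2 fold change of -0.21, against -1.33 without them, and 9 of the 13 estimates were below 0. The genes still called lower were mt-Nd4l, mt-Nd4, mt-Atp8, mt-Atp6, mt-Cytb and mt-Tl1, while mt-Co3 and mt-Ts1 were called higher. GC content was limited at a lower bound in the fit, so members low in GC, such as mt-Atp8, mt-Atp6 and mt-Nd4, got nearly the same offset. What a correction by their own GC content would give was not tested. Those offsets were fitted with the members included. With offsets fitted to the genes outside mtDNA and its copies, an alternative chosen after seeing the data, the median was -0.26, again with 6 members called lower and 2 higher. In the fit with members included 9.11% of all genes were called lower and 10.4% higher. Across the 13 protein genes themselves, GC content and log2 fold change had a Pearson r of 0.29, a description over genes that share libraries and precursors. The part of GC content in the lower level of the members was not tested beyond these offsets.

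**Figure D5:**
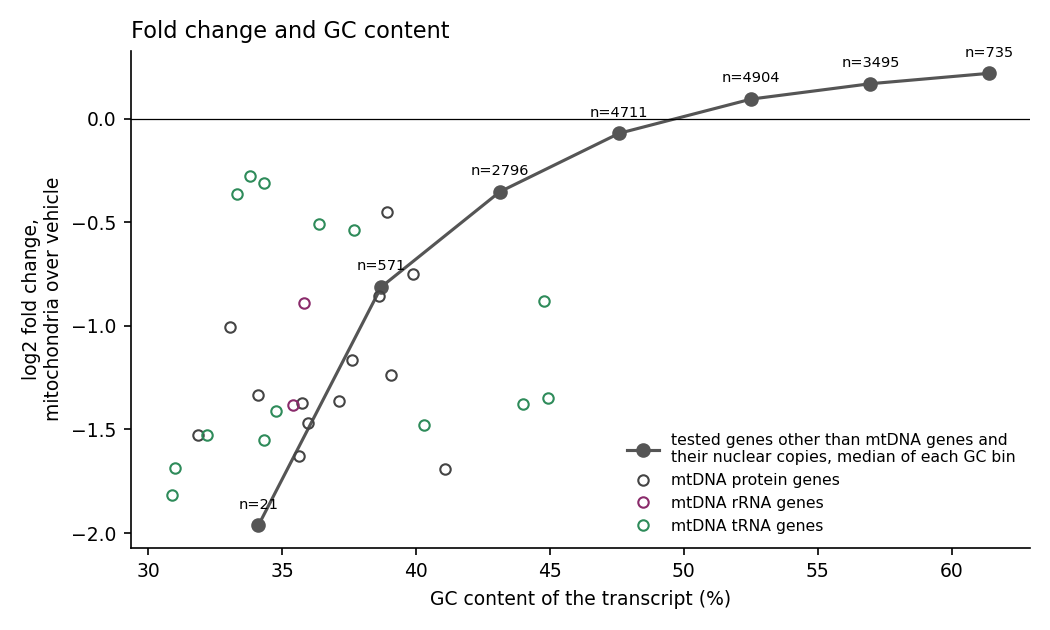
Median log2 fold change, mitochondria over vehicle, of genes other than mtDNA genes and their nuclear copies, in bins of GC content (line, drawn at the median GC of each bin), with the mtDNA members as points at their own GC content. The line is at -1.96 under 35% GC and -0.81 at 35 to 40% GC, and of the protein genes in that 35 to 40% range mt-Co1 and mt-Co3 lie above -0.81 and the others below it.

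Nuclear genes that make, process and stabilise mtDNA transcripts were mostly not called in either direction. Of 41 tested, 2 rose and 0 fell (edgeR; at an unadjusted p under 0.05, 4 were higher and 2 lower, and DESeq2 called 2 higher and 0 lower), with a median log2 fold change of 0.01. Over all genes tested 6.36% were called higher, so 2 of 41 is near the background. The share of all genes at an unadjusted p under 0.05 was not computed. The mitochondrial RNA polymerase Polrmt stood at 22.9 ± 3.24 CPM with mitochondria and 18.8 ± 0.436 CPM with vehicle (SD, n = 3 each) and did not pass (0.29 ± 0.13 SE, adjusted p = 0.17, edgeR). Tfam, which packages mtDNA and starts its transcription, stood at 31.6 ± 0.323 CPM with mitochondria and 27.1 ± 1.41 CPM with vehicle. It did not pass (0.22 ± 0.10, adjusted p = 0.17), but was called higher with GC offsets (0.60, adjusted p = 0.022). Lrpprc, which stabilises mitochondrial mRNAs, was at -0.33 (adjusted p = 0.19). Among all groups of the list, those that passed were Fastk, a member of a family of mitochondrial RNA-binding proteins, and Mrm1, which methylates the 16S rRNA. Fastk averaged 88.1 ± 9.39 CPM with mitochondria and 67.2 ± 1.51 CPM with vehicle (SD, n = 3 each; log2 fold change 0.39 ± 0.10, adjusted p = 0.036). Mrm1 measured 8.14, 5.79 and 6.35 FPKM with mitochondria and 5.27, 3.92 and 4.56 FPKM with vehicle (0.63 ± 0.17, adjusted p = 0.043). Leaving out 1 library ended each call in 4 of 6 fits. Both were lost without mitochondria replicate 3, vehicle replicate 2 or vehicle replicate 3, Fastk also without vehicle replicate 1 and Mrm1 without mitochondria replicate 1.

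The nuclear-encoded partners of the same complexes were mostly not called. Of 72 tested, 63 estimates lay above 0 and 9 below it. Of the 72, 6 rose and 0 fell, which is near the 6.36% of all genes tested that were called higher. The median log2 fold change of the 72 was 0.18, against 0.003 over all genes tested. At an unadjusted p under 0.05, 22 were higher and 0 lower, but the share of all genes at that threshold was not computed. DESeq2 called 11 of the list higher and 0 lower, and it called 1514 of all 26044 genes higher. By complex the medians were 0.17 for complex I, where 3 of 36 rose, 0.24 for complex III, where 2 of 9 rose, 0.19 for complex IV, where 1 of 11 rose, and 0.16 for complex V, where 0 of 16 passed. The corresponding medians of the mtDNA-encoded subunits were -1.36, -1.24, -0.75 and -1.50. Ndufv3, an accessory subunit of complex I, measured 49.9, 43.7 and 45.4 FPKM with mitochondria and 34.6, 33.0 and 30.1 FPKM with vehicle (0.58 ± 0.10 SE, adjusted p = 0.0093, edgeR). The groups were apart there. Uqcrh, the hinge subunit of complex III, rose by 0.36 ± 0.08 (adjusted p = 0.023), and Ndufa4, a subunit associated with complex IV, by 0.32 ± 0.08 (adjusted p = 0.038). The complex I subunits Ndufa1 (0.48) and Ndufb9 (0.38) and the complex III subunit Uqcr11 (0.42) also rose. The number that rose was 0 without vehicle replicate 2 or 3 and 1 without vehicle replicate 1 or mitochondria replicate 3. It was 14 with GC offsets. Genes called higher over the whole table moved too, from 1099 of 17290 in the main fit. They were 130 of 17875 without vehicle replicate 2 and 132 of 17938 without vehicle replicate 3. Without vehicle replicate 1 they were 970 of 17950, without mitochondria replicate 3 398 of 18033, and with GC offsets 1800 of 17290.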

How the data were processed

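Poly(A) RNA was sequenced as paired-end libraries on an Illumina instrument, per the labels' protocols. The authors deposited 1 table with FPKM, normalised by them for length and depth, and a column of expected counts per gene and library, which hold whole numbers and are not normalised. The submitters' processing notes name HISAT2 2.0, StringTie 1.3.0, Bowtie 0.12.2 and the build mm8, with no roles. The coordinates, however, were those of GENCODE M21 on GRCm38 for all 37 members (28732 of 28812 identifiers were found there, 25914 with the same start and end). The deposited counts are not plain read tallies: all 222 member values equalled FPKM times length times a library constant, rounded up (within 1 count or 0.2%), and low counts piled up at 4 and 8. Totals are thus given as deposited counts, and no interval for counting error is drawn from them.

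The main test was edgeR 4.0.16 under R 4.3.3. Libraries were scaled by TMM, genes kept by filterByExpr at a minimum count of 10, and the quasi-likelihood model held only the group. P-values are two-sided and were adjusted by Benjamini-Hochberg over 17290 genes, with calls at under 0.05. The SE was derived from the fold change and the F statistic. Shares and ratios of counts were tested by exact permutation of the group labels (20 assignments, two-sided, with 0.10 as the smallest possible p). Ratios that would divide a 0 were left out. Nuclear copies were found with blastn among GENCODE M21 transcripts (identity of at least 95% over at least 200 bases), and sequences are the GENCODE M21 transcripts on GRCm38. GC content was that of the GENCODE M21 transcripts, for 28716 genes, and offsets came from a spline with 6 degrees of freedom over genes with a mean count of at least 100, members included. Before the spline, GC content outside a low and a high quantile of those genes was set to that quantile.

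All 13 protein genes and 2 rRNAs are named, tRNAs that passed the filter by name or range, and of the other lists the genes that passed, at most 6 per list, plus Tfam, Polrmt and Lrpprc, and at most 6 nuclear copies. The other copies named were added to this rule after their values were seen. Members and lists were chosen with earlier results of these data known. Alternatives were no filter, DESeq2 size factors, scaling without the mt- genes, DESeq2 1.42.0, counts divided by 4, limma 3.58.1 on log2(FPKM + 1) or log2(FPKM + 0.1) for genes with a mean FPKM of at least 1 or with no such filter, GC offsets (also fitted without mtDNA genes and their copies, added after seeing the data), a replicate block, and each library left out. On simulated counts for 16743 genes, the edgeR step called 91 of 100 genes changed 2-fold, 99 of 100 changed 4-fold and 19 unchanged genes. The changed genes were drawn only from genes with high mean counts, and no trend with GC content was simulated. These rates therefore do not apply to the scarce tRNAs or to changes that follow GC content. Among genes with a mean count above 100, libraries shared equal counts in 0.116% to 0.349%, so none was a duplicate.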

Additional observations from a re-analysis of the deposited data

How the results depend on the processing

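The median of the protein genes kept its direction in every alternative run. The share of mtDNA transcripts was lower in all mitochondria libraries by counts and by FPKM. With 1 library left out, log2 ratios to complex IV ran from -0.68 to -0.57 for complex I, -0.56 to -0.47 for complex III and -0.81 to -0.70 for complex V. Because the groups did not overlap, leaving out 1 library could not turn the direction of the share or of these ratios. Scaling cannot move the ratios either, and they were taken without GC offsets. With no filter on low counts, 507 genes were lower and 357 higher, with 7 members and 7 protein genes lower, 0 mtDNA expression genes and 2 nuclear OXPHOS (oxidative phosphorylation) genes higher. The cause was not tested. DESeq2 and counts divided by 4 each called 11 OXPHOS genes higher, where 1514 of 26044 and 1264 of 14527 genes were higher. Limma on log2(FPKM + 1) called 25 of 33 members lower, where 1568 of 11548 genes were lower. That gene set differs from the main one, so the count cannot be set directly against 16 of 29. Limma called 1 expression gene higher on log2(FPKM + 1) and also 1 on log2(FPKM + 0.1). Limma with no filter called 301 genes lower and 161 higher, with 4 members and 4 protein genes lower, 0 expression genes and 1 OXPHOS gene higher. GC offsets gave 1800 genes higher, 6 members lower and 2 higher, 5 protein genes lower, 4 expression genes and 14 OXPHOS genes higher, and a protein-gene median of -0.21. Signs turned there for mt-Rnr1 (0.27), mt-Ta (0.81), mt-Tn (0.90), mt-Tc (0.66), mt-Ty (0.81), mt-Co1 (0.0038), mt-Ts1 (0.54), mt-Co2 (0.073), mt-Co3 (0.43) and mt-Nd3 (0.11). Offsets fitted only to genes outside mtDNA and its nuclear copies, chosen after seeing the data, also gave 1800 genes higher, 6 members lower and 2 higher, 5 protein genes lower, and 4 expression and 14 OXPHOS genes higher. The protein-gene median was -0.26, and signs turned for the same genes: mt-Rnr1 (0.22), mt-Ta (0.77), mt-Tn (0.86), mt-Tc (0.62), mt-Ty (0.77), mt-Co1 (0.0012), mt-Ts1 (0.53), mt-Co2 (0.068), mt-Co3 (0.42) and mt-Nd3 (0.066). With 1 library left out, genes called lower ranged from 310 to 1694 and higher from 130 to 1086, members lower from 7 to 16, protein genes lower from 7 to 12, expression genes higher from 0 to 2 and lower from 0 to 1, and OXPHOS genes higher from 0 to 6. The lowest counts came without vehicle replicate 2 or 3.

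Over all genes tested, replicate numbers showed little pairing: deviations of same-number libraries correlated at 0.0837, 0.0272 and 0.0237, other pairs at -0.0684 to 0.0567. In all 13 protein genes, however, replicate 1 was lowest and replicate 2 highest in both groups. Whether the numbers mark pairs or batches for these genes cannot be told from such correlations. With the number as a replicate block, 16 members and 12 protein genes were lower (median -1.36), and 1 expression gene and 2 OXPHOS genes were higher. Among ratios to the 13 protein genes, mt-Nd3 turned sign with FPKM in place of counts (0.016). With 1 library left out the log2 ratio difference ran from -0.12 to 0.0066 for mt-Nd3, and for scarce tRNAs from -1.49 to 0.26 (mt-Ti), -0.84 to 0.47 (mt-Tk), -1.17 to 0.38 (mt-Th), -1.15 to 0.10 (mt-Ts2) and -1.32 to 0.064 (mt-Tt). Low counts limit these tRNAs.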
